A study of Danio rerio with 6 samples.

Results

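The green cone opsins of zebrafish are encoded by 4 gene copies, opn1mw1, opn1mw2, opn1mw3 and opn1mw4. All 4 were found by symbol among the 14781 genes of the table, and their transcripts were followed in the eyes of single larvae at 5 days post fertilization. There were 3 larvae homozygous for the stl888 allele of samd7 (samd7-/-) and 3 wild-type larvae (WT), all born to intercrosses of stl888 heterozygotes. The genotype was read from the rear of each body, and the eyes of 1 larva made 1 library. The labels do not describe the stl888 lesion. The libraries held between 23185755 and 23550042 reads assigned to genes for samd7-/- and between 23387568 and 26672265 for WT.

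Opsins are the light-sensing proteins of photoreceptors, and a cone is usually named by the colour range of the one opsin class that it makes. In zebrafish the green opsin copies lie side by side in a tandem array and share a control region upstream of it. They differ in the wavelength to which they are tuned, with opn1mw1 tuned to the shortest and opn1mw4 to the longest. In larvae opn1mw1 and opn1mw2 are known as the early copies, while opn1mw3 and opn1mw4 come on later and in other parts of the retina. samd7 encodes a photoreceptor protein of the Polycomb group, which keeps genes silent through chromatin. The comparison asks how opsin choice differs in samd7-/- eyes. RNA of samd7 was more abundant in the mutants than in WT, at 4413 ± 316 in samd7-/- and 1777 ± 174.7 in WT (SD, n = 3 each; limma adjusted p = 0.0049), so its level does not show a loss, and with the lesion not described it does not check the genotype labels.

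Values below are normalized counts, that is, reads divided by 1 size factor per library, so that 1 read is worth between 0.978 and 1.01 in samd7-/- libraries and between 0.917 and 1.11 in WT libraries. Levels are not corrected for transcript length, so shares are shares of reads and not of molecules. The eye was measured whole, and a smaller number of green cones cannot be told apart from less opsin RNA in each of them.

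opn1mw1 carried nearly all green opsin reads in WT and was all but undetected in the mutants. Its normalized count was 0, 1.01 and 1.96 in samd7-/- larvae 1 to 3, which stands for 0, 1 and 2 reads. The WT larvae had 400999.8, 324035 and 221550.4, or 419466, 291712 and 241504 reads. The genotypes were thus separated by 5 orders of magnitude, while the WT larvae differed among themselves by a factor of 1.81. By count opn1mw1 ranked 3, 7 and 10 among all 14781 genes in WT larvae 1 to 3. It made up 1.57, 1.25 and 0.928% of all assigned reads there.

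The mean of opn1mw1 was 0.989 ± 0.978 in samd7-/- and 315528 ± 90027 in WT (SD, n = 3 each). The samd7-/- level was 0.000313% of the WT level. Taken over all reads of a genotype and scaled by the size factors, the ratio of samd7-/- to WT was 3.2e-06, with an exact 95% counting interval of 6.5e-07 to 9.2e-06. With limma on log2(normalized count + 1), the log2 fold change was −17.37 (SE 0.38, 95% interval −18.24 to −16.50, adjusted p = 3.4e-07). This fitted size depends on the number added before taking logs and is not a bound. opn1mw1 had the lowest log2 fold change and the smallest p of the 11959 genes tested. It entered the test through its WT libraries alone, since a gene needed a value of at least 10 in 3 libraries.

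opn1mw2 was also far lower in the mutants but, unlike opn1mw1, was detected in every library of both genotypes. Its normalized counts were 58.0, 24.3 and 44.0 in samd7-/- larvae 1 to 3, from 59, 24 and 45 reads. The WT larvae had 4012, 2493 and 3268, from 4197, 2244 and 3562 reads. The genotypes did not come near each other, the highest samd7-/- larva being far below the lowest WT larva. The mean was 42.1 ± 16.9 in samd7-/- and 3258 ± 759.8 in WT (SD, n = 3 each), a log2 fold change of −6.30 (limma, SE 0.32, 95% interval −7.02 to −5.58, adjusted p = 0.000104). What was left of opn1mw2 in samd7-/- larvae 1 to 3 came to 1.78, 0.745 and 1.35% of the WT mean. The order of the WT larvae also differed between the copies: larva 3 had the least opn1mw1 of the WT larvae, but larva 2 had the least opn1mw2.

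opn1mw3 and opn1mw4 gave at most 10 reads in any larva, samd7-/- or WT. For opn1mw3 the samd7-/- larvae had 1, 2 and 0 reads and the WT larvae 10, 5 and 3. Its normalized counts were 0.983, 2.02 and 0 in samd7-/-, against 9.56, 5.55 and 2.75 in WT. The closest libraries, samd7-/- larva 2 and WT larva 3, were a single read apart. The ratio of samd7-/- to WT was 0.167, with an exact 95% counting interval of 0.0315 to 0.572 that leaves out the spread between larvae. For opn1mw4 the samd7-/- larvae had 7, 0 and 1 reads and the WT larvae 1, 3 and 2. Its genotypes overlapped, with a ratio of 1.34 (exact 95% counting interval 0.407 to 4.67). Of the 8 opn1mw4 reads in the mutants, 7 came from 1 larva.

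**Figure D1:**
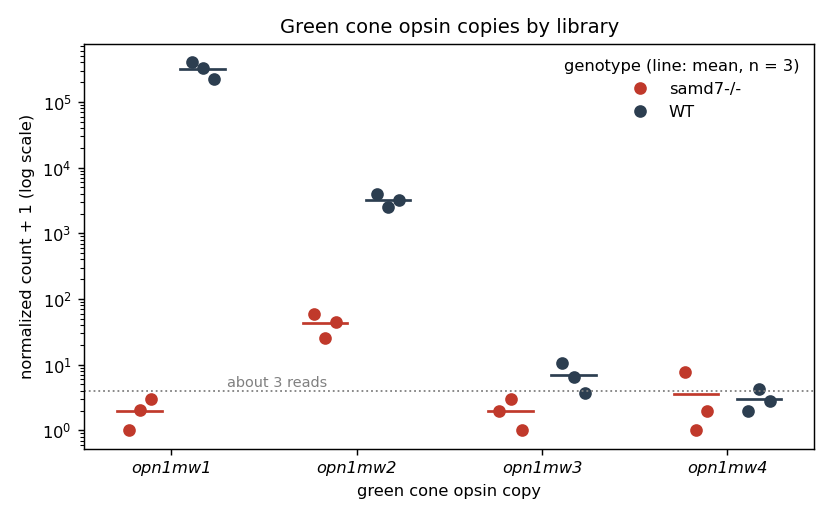
Normalized count + 1 on a log scale for each green opsin copy, with each dot 1 larva and each line the mean of 3 larvae, samd7-/- in red and WT in dark blue. opn1mw1 and opn1mw2 separate by genotype, with means of 0.989 in samd7-/- against 315528 in WT and of 42.1 in samd7-/- against 3258 in WT, while opn1mw3 and opn1mw4 lie near the level of 3 reads (dotted line) in both genotypes.

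Neither of these 2 copies passed the filter on low values, so 2 of the 4 members were tested and both fell. Over all genes tested, 0.259% were called lower in samd7-/- at an adjusted p under 0.05. The samd7-/- larvae all lay below the WT larvae for 3 members (opn1mw1, opn1mw2 and opn1mw3), an order seen for 6.05% of the 13846 genes with a read in any library. When limma was run with no filter, opn1mw3 had a log2 fold change of −1.81 (95% interval −3.26 to −0.36, adjusted p = 0.726) and opn1mw4 of −0.21 (95% interval −2.04 to 1.63, adjusted p = 0.968). The intervals are wide, and at this depth a difference in opn1mw4 within its interval was not detectable. The log scale used also understates changes of genes this low.

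**Figure D2:**
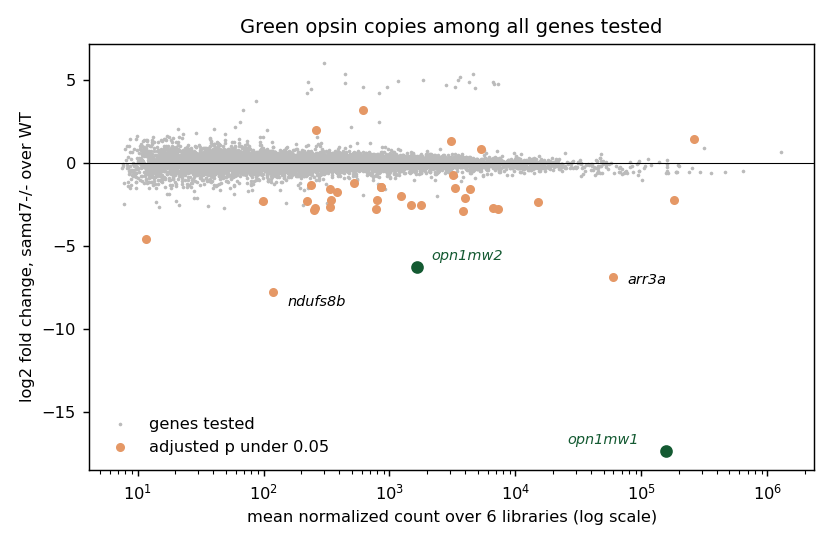
Log2 fold change of samd7-/- over WT against the mean normalized count (log scale) for the 11959 genes tested, with genes at an adjusted p under 0.05 in orange and the green opsin copies in dark green. opn1mw1, at −17.37, stands below every other gene, and opn1mw2, at −6.30, lies beside arr3a and ndufs8b. Digestive enzyme genes, which were high in samd7-/- larva 1, are not labelled.

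The makeup of the green opsin reads differed between the genotypes, with opn1mw2 in place of opn1mw1 as the copy with most reads in the mutants. opn1mw1 took 0, 3.70 and 4.17% of green opsin reads in samd7-/- larvae 1 to 3, against 99.0, 99.2 and 98.5% in WT larvae 1 to 3. opn1mw2 took 88.1, 88.9 and 93.8% in samd7-/-, against 0.991, 0.763 and 1.45% in WT. Neither share overlapped between the genotypes. A two-sided exact permutation test gave p = 0.1 for each copy, and 3 larvae against 3 cannot give a smaller value.

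Few reads stand behind the mutant shares. There were 67, 27 and 48 green opsin reads in samd7-/- larvae 1 to 3, against 423674, 293964 and 245071 in WT. The exact 95% binomial interval of the opn1mw2 share was 77.8 to 94.7% in samd7-/- larva 1, 70.8 to 97.6% in larva 2 and 82.8 to 98.7% in larva 3, and these intervals overlap. The count of 0 for opn1mw1 in samd7-/- larva 1 allows a share of up to 5.36% there, by the same kind of interval. The ratio of opn1mw2 to opn1mw1 also moved among WT larvae, at 1.001, 0.769 and 1.47%, and their counting intervals for the opn1mw2 share did not overlap. The copies are similar in sequence and reads may be split among them. The lowest shares, such as 10 opn1mw3 reads beside 419466 of opn1mw1, may thus include reads of another copy. So may the opn1mw2 reads of WT larvae, at 1.001, 0.769 and 1.47% of opn1mw1, which would affect the size of the opn1mw2 fall. Such splitting was not tested.

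**Figure D3:**
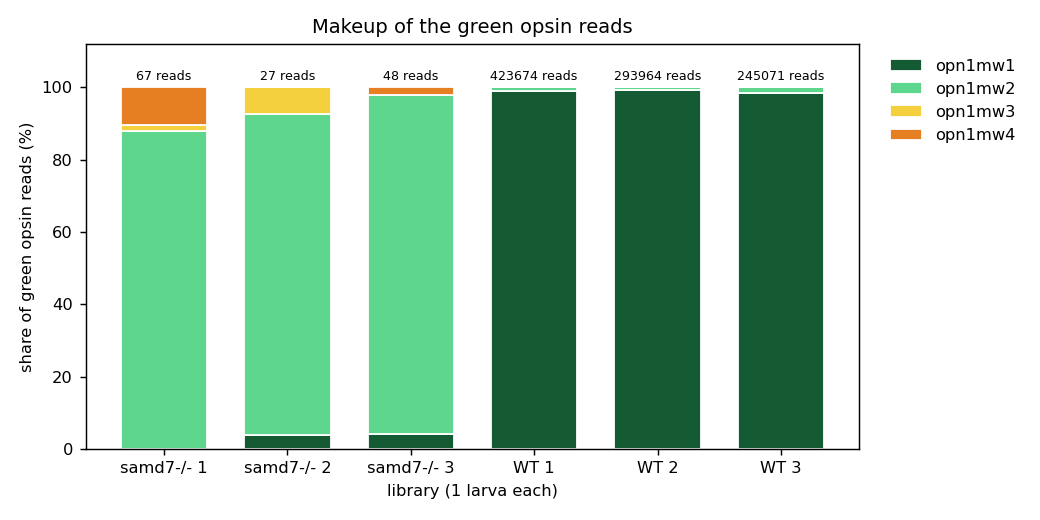
Share of green opsin reads taken by each copy, in percent, for each library, with the number of green opsin reads above each bar. opn1mw2 fills 88.1 to 93.8% of the small remainder in the samd7-/- larvae, and opn1mw1 fills 98.5 to 99.2% in the WT larvae.

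Added up over the copies, green opsin stood at 65.9, 27.3 and 46.9 in samd7-/- larvae 1 to 3 and at 405022.5, 326536.5 and 224822.7 in WT larvae 1 to 3. This sum does not depend on how the counted reads were split among the copies. Any reads left uncounted because they match several copies would be missing from it, which was not tested. The samd7-/- to WT ratio of the sum was 0.000146 (exact permutation p = 0.1, two-sided, the smallest possible). In WT the sum varied with a coefficient of variation of 28.3%. The other cone opsins varied to a like extent in the same larvae, by 24.1% for the UV opsin opn1sw1, 20.6% for the blue opsin opn1sw2 and 25.0% for the red opsin opn1lw2. As a share of cone opsin counts, green opsin varied by 8.03% among WT larvae.

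Green opsin took 0.00296, 0.0013 and 0.00203% of cone opsin counts in samd7-/- larvae 1 to 3, against 17.6, 18.6 and 15.8% in WT larvae. The red opsins, whose genes form another tandem array, offer a comparison within the same library. Green over red opsin counts came to 0.0003, 0.00012 and 0.000209 in samd7-/- larvae, against 1.11, 1.33 and 0.941 in WT larvae. The samd7-/- ratio was 0.000186 of the WT ratio (exact permutation p = 0.1, two-sided). The red opsin opn1lw2 itself had 222662 ± 3474 in samd7-/- and 282512 ± 70492 in WT (SD, n = 3 each; limma log2 fold change −0.32, 95% interval −0.79 to 0.16, adjusted p = 0.826). It was not called, but its highest samd7-/- larva (225057) lay below its lowest WT larva (238605). The red share of cone opsin counts was 10.2 ± 0.608% in samd7-/- and 15.5 ± 1.46% in WT, without overlap (exact permutation p = 0.1, two-sided). Red opsin was thus not a fixed reference.

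The cone opsin pool without green was 2223749, 2097200.2 and 2311160.3 in samd7-/- larvae, against 1891612, 1431560.4 and 1195179 in WT larvae. All mutants lay above all WT larvae (ratio 1.47, exact permutation p = 0.1, two-sided), while the total with green overlapped between genotypes (ratio 1.21, exact permutation p = 0.3). The blue opsin opn1sw2 was higher in samd7-/- without overlap (limma log2 fold change 0.92, adjusted p = 0.303, DESeq2 adjusted p = 0.000132). So was the UV opsin opn1sw1 (limma log2 fold change 0.68, adjusted p = 0.747, DESeq2 adjusted p = 0.073). Among the mutants, larva 2 had the lowest opn1mw2 (24.3) and the highest count of the minor red opsin opn1lw1 (1096, 2528 and 672 in samd7-/- larvae 1 to 3, against 262.9, 171 and 231 in WT larvae). With 3 larvae this is a description of single animals. By genotype, opn1lw1 was higher in every samd7-/- larva than in any WT larva. Its limma log2 fold change was 2.49 (adjusted p = 0.0863), and DESeq2 called it (adjusted p = 0.00117).

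**Figure D4:**
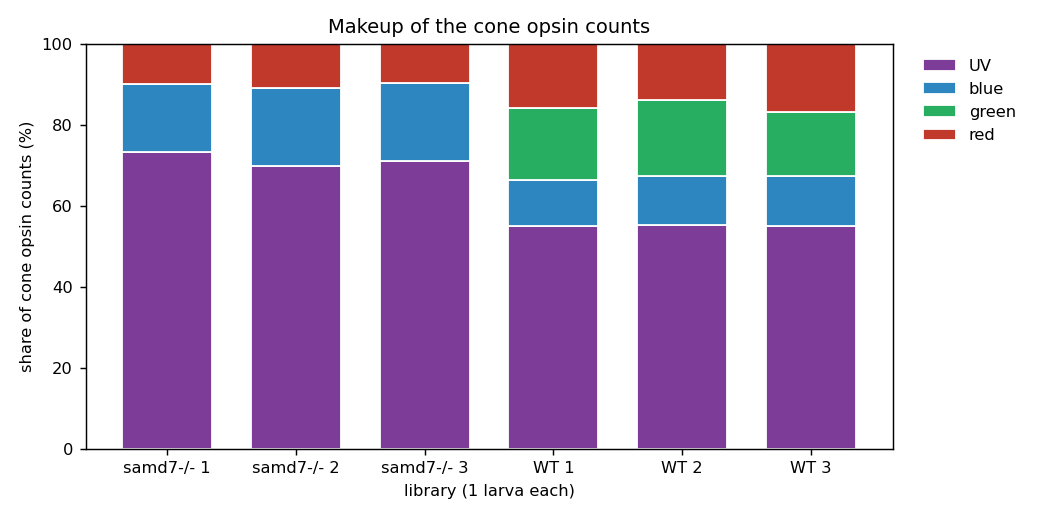
Share of cone opsin counts, in percent, taken by the UV, blue, green and red opsins in each library. Green opsin fills 15.8 to 18.6% of the bar in WT larvae and is too thin to see in samd7-/- larvae, at no more than 0.00296%.

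Among other genes of the cone signalling list, gnat2 was not called. Membership of this list does not make a gene specific to cones, and whole eyes do not resolve the cell type. The guanylate cyclase gc3, matched by synonym to gucy2d, was not called either (4757 ± 545 in samd7-/-, 3761 ± 850 in WT). pde6h, zgc:73075, gucy2f and gc2 were lower in samd7-/- but were called with DESeq2 and not with limma. gnat2, the transducin subunit that all cone types use to relay the opsin signal, had 121659 ± 14936 in samd7-/- and 102203 ± 8958 in WT (SD, n = 3 each; limma log2 fold change 0.25, 95% interval −0.12 to 0.61, adjusted p = 0.82). pde6h, the inhibitory subunit of the cone phosphodiesterase, stood at 60884, 59255 and 76614 in samd7-/- larvae, against 161494, 104392 and 138052 in WT larvae, with no overlap. Its limma log2 fold change was −1.02 (95% interval −1.48 to −0.57, adjusted p = 0.163), and DESeq2 called it (adjusted p = 3.2e-05). zgc:73075, matched by synonym to the recoverin gene rcvrn3, stood at 23939 ± 2799 in samd7-/- and 42186 ± 6932 in WT (limma log2 fold change −0.81, adjusted p = 0.178; DESeq2 adjusted p = 0.000526). pde6c, a catalytic subunit of the cone phosphodiesterase, went the other way, also with no overlap. It stood at 29733 ± 4673 in samd7-/- and 19304 ± 2664 in WT (limma log2 fold change 0.62, adjusted p = 0.523). gucy2f stood at 29.9 ± 15.3 in samd7-/- and 156 ± 74.9 in WT (limma log2 fold change −2.38, adjusted p = 0.25). gc2 stood at 33.9 ± 7.5 in samd7-/- and 115.8 ± 43.7 in WT (limma log2 fold change −1.68, adjusted p = 0.268). Neither gene overlapped between genotypes, and the DESeq2 adjusted p was 0.000242 for gucy2f and 0.00355 for gc2. pde6h, zgc:73075, gucy2f, gc2 and pde6c were singled out after their values were seen. Green opsin counts per gnat2 count were 0.000494, 0.00026 and 0.00037 in samd7-/- larvae, against 3.63, 3.22 and 2.401 in WT larvae (exact permutation p = 0.1, two-sided). arr3a, the arrestin that shuts off opsins in red and green cones, fell in samd7-/- (limma log2 fold change −6.88, SE 0.17, adjusted p = 5.9e-07). The summed green opsin was low relative to arr3a as well. Its counts per arr3a count were 0.0622, 0.0319 and 0.0448 in samd7-/- larvae, against 2.81, 2.80 and 2.43 in WT larvae (exact permutation p = 0.1, two-sided, the smallest possible). In WT this sum was nearly all opn1mw1. opn1mw2 alone, with a log2 fold change of −6.30, did not fall further than arr3a.

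The list of cone signalling genes was fixed with earlier results of these data known, so its counts are a description. Of its genes, 26 were tested. Of these, 3 fell (arr3a, guca1a and rgs9b), 1 rose (arr3b) and 22 did not pass, where 0.259% of all genes tested were called lower and 0.0418% higher. The eye was measured whole, so the cell type behind each call was not resolved. A call in this list is therefore not by itself a call in cones. The other guca1 and rgs9 genes of the list were not called. Their log2 fold changes were 0.30 for guca1c, −0.42 for guca1d, 0.46 for guca1e, −0.04 for guca1g and 0.13 for rgs9a. guca1a, an activator of guanylate cyclase, stood at 463 ± 71.7 in samd7-/- and 1258 ± 137 in WT. rgs9b, which speeds the shut-off of transducin, stood at 169.9 ± 44.4 in samd7-/- and 503 ± 62.3 in WT. arr3b, the arrestin of UV and blue cones, stood at 383875 ± 8951 in samd7-/- and 141857 ± 15655 in WT. The median log2 fold change of the list was 0.11, beside 0.00 over all genes tested. Counts of calls in this list hung on single libraries, with 2 called without samd7-/- larva 1, 2 without WT larva 1, 2 without WT larva 2 and 1 without WT larva 3, arr3a being called in each of these fits. guca1a was not called without WT larva 1 or 3, rgs9b was called only without samd7-/- larva 3 and not with the replicate block, and arr3b only without samd7-/- larva 2 or WT larva 1.

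Among transcription factors known to act on cone opsins, RNA of six7, six6b, crx and thrb was not called. Their part in the green opsin result was not tested. In zebrafish, six6b and six7 are homeobox factors needed for green and blue opsin expression. six7 stood at 5529 ± 708 in samd7-/- and 6610.4 ± 804.5 in WT (limma log2 fold change −0.26, 95% interval −0.58 to 0.06, adjusted p = 0.793). six6b stood at 3266 ± 532 in samd7-/- and 3185 ± 669 in WT (log2 fold change 0.05, 95% interval −0.38 to 0.47, adjusted p = 0.969, limma). crx, a homeobox factor of all photoreceptors, had a log2 fold change of −0.13 (95% interval −0.40 to 0.13). thrb, the thyroid hormone receptor of red cones, had 0.15 (95% interval −0.15 to 0.45).

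The list of regulators was also chosen with earlier results of these data known. Of 27 regulators tested, 1 fell (nr2e3, a rod factor), 2 rose (tbx2a, a factor of UV cones, and samd7) and 24 did not pass. nr2e3 stood at 1729 ± 336 in samd7-/- and 4896 ± 89.5 in WT, and tbx2a at 6855 ± 566 in samd7-/- and 3863 ± 353 in WT. The list median was 0.15 on the log2 scale, beside 0.00 over all genes. samd7 was called with any library left out, and nr2e3 was not called without WT larva 1 or 3. tbx2a was not called in any of these 6 fits, nor with edgeR or the replicate block. The list had 1 call without WT larva 3, and at most 4 calls among all alternatives. foxq2, another regulator of the list, was not called with limma (adjusted p = 0.055) but was called higher with DESeq2 (adjusted p = 4.1e-05).

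The genes next to the green opsin array did not pass. In the RefSeq gene order (assembly GRCz12tu, used for neighbours only) the copies follow one another from opn1mw1 to opn1mw4 with no other named protein-coding gene between them. Of the 5 named protein-coding genes on each side, 7 could be matched to the table and tested. None of the 7 was called with limma, DESeq2 or edgeR, and 0 had an unadjusted p under 0.05 in limma. The nearest on the opn1mw1 side, slc6a13l, which encodes a member of a transporter family, stood at 19.2 ± 0.921 in samd7-/- and 23.7 ± 15.3 in WT (log2 fold change −0.13, 95% interval −1.24 to 0.99). The nearest on the opn1mw4 side, synpr, which encodes a synaptic vesicle protein, stood at 24.6, 43.5 and 5.87 in samd7-/- larvae, against 21.0, 67.8 and 88.1 in WT larvae (log2 fold change −1.37, 95% interval −3.12 to 0.38).

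Farther out, the better counted neighbours had narrower intervals. wdr82, a subunit of histone methyltransferase complexes, had a log2 fold change of −0.07 (95% interval −0.36 to 0.22). fkbp5, a co-chaperone of steroid receptors, had −0.12 (95% interval −0.79 to 0.55), and srsf3a, a splicing factor, had 0.24 (95% interval −0.43 to 0.91). The intervals of rsg1 (−0.93 to 0.57), a gene of cilium assembly, and twf2 (−1.74 to 0.33), an actin-binding protein, also included 0. The lower bound of each of the 7 intervals lay above the interval of opn1mw2.

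**Figure D5:**
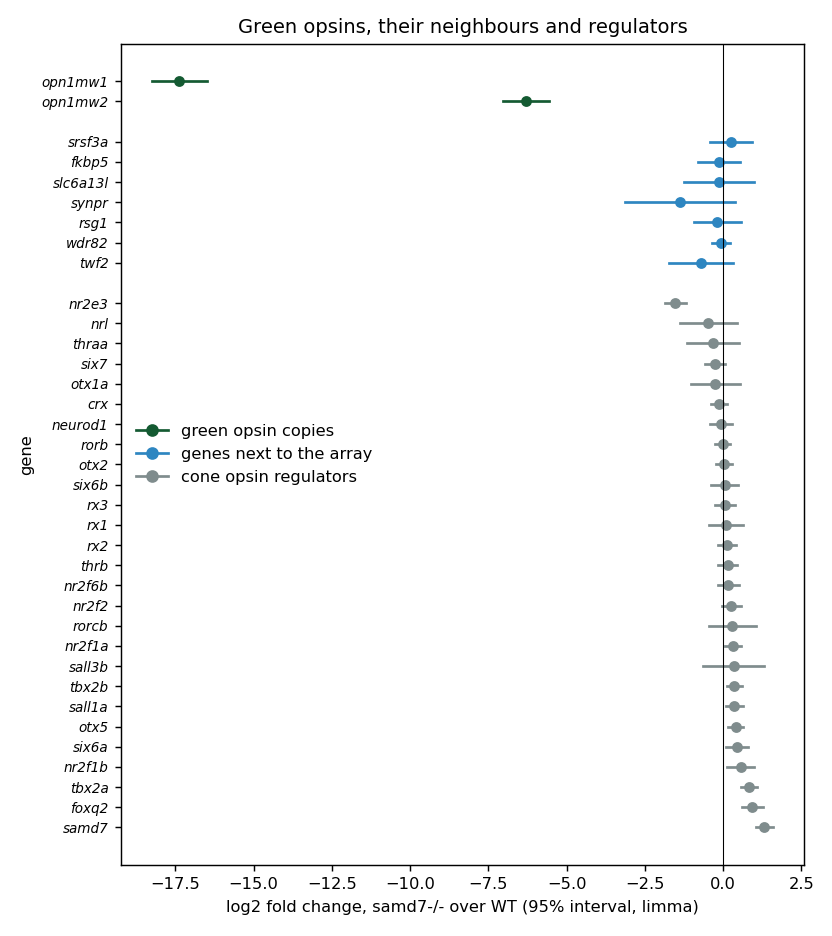
Log2 fold change of samd7-/- over WT with its 95% interval (limma) for opn1mw1 and opn1mw2, the 7 tested genes next to the array and the 27 tested cone opsin regulators. The neighbours lie between −1.37 and 0.24 and the regulators between −1.52 and 1.31, while opn1mw1 lies at −17.37 and opn1mw2 at −6.30.

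Among 10337 genes with a mean of at least 50, the one whose pattern over the 6 libraries lay closest to opn1mw2 was arr3a. The measure was the root mean square difference of log2(normalized count + 1), each gene centred on its WT mean, and came to 0.531 for arr3a. With a fall this large, it mostly ranks genes by how near their log2 fold change lies to that of opn1mw2. opn1mw2 ranked 4 from the lowest log2 fold change of the genes tested, so few genes could lie near it. Closeness on this measure does not by itself show a shared pattern. arr3a had 1059, 855 and 1048 in samd7-/- larvae 1 to 3, against 144048, 116456 and 92408.4 in WT larvae. The samd7-/- larva with the lowest opn1mw2, larva 2, also had the lowest arr3a, but among WT larvae the lowest was larva 2 for opn1mw2 and larva 3 for arr3a. The next in likeness to opn1mw2 were ndufs8b (1.15), which encodes a subunit of mitochondrial complex I, the rod arrestin saga (2.41), zgc:77752 (2.44) and the rhodopsin-like rhol (2.50).

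For opn1mw1 the measure is bounded, since a gene at 0 in the mutants can fall no further than its own WT level allows. The nearest by this measure were ndufs8b (6.81), arr3a (7.43), saga (10.3), zgc:77752 (10.3) and the rod arrestin sagb (10.3), on the same log2 measure. ndufs8b had 0 reads in all samd7-/- larvae and averaged 238 in WT, so its difference from opn1mw1 is set by its WT level and the added 1 and does not show an unlike pattern.

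The libraries carried eye transcripts throughout, with markers of photoreceptors, lens, pigment epithelium and inner retina detected in both genotypes. The 6 lens markers summed to between 598598 and 925085 in samd7-/- and between 733287 and 1397385 in WT, and the 5 pigment epithelium markers to between 38942 and 128764 in samd7-/- and between 55632 and 126935 in WT. Both ranges overlap. All 6 lens markers had negative log2 fold changes (−0.70 to −0.43), none of them called. Markers of muscle were detected too, summing to between 12562 and 36772 in samd7-/- and between 19078 and 50323 in WT. Skin and cornea markers summed to between 216838 and 241569 in samd7-/- and between 242923 and 252013 in WT, without overlap. No muscle, skin or cornea marker was called. The rod genes gnat1, rho and rhol were lower in samd7-/-, while the pineal markers went in different directions. The rod transducin gnat1 fell, at 6836, 2659 and 6649 in samd7-/- larvae, against 27794, 25466 and 21762 in WT larvae (limma log2 fold change −2.33, adjusted p = 0.0354). Rhodopsin, rho, and rhol fell as well (log2 fold changes −2.24 and −2.77). The calls of gnat1 and rho were kept with samd7-/- larva 2 left out and lost with any other library left out, and that of rhol was lost without samd7-/- larva 3 or any WT larva. Robust moderation in limma also took the calls of gnat1 (adjusted p = 0.0832), rho (adjusted p = 0.0534) and rhol (adjusted p = 0.0787). The rho call was lost in limma with no filter (adjusted p = 0.0508) and with quantile normalization (adjusted p = 0.1) as well. Of the 4 pineal markers, aanat2, an enzyme of melatonin synthesis, fell and exorh, the pineal rhodopsin, rose (log2 fold changes −1.98 and 3.19). The others, asmt and tph2, were not called (log2 fold changes −0.13 and 0.79). The exorh call was lost without samd7-/- larva 1 or 3 or WT larva 1 or 3. The part of these genes and cell types in the green opsin result was not tested. One library stood apart: 12 digestive enzyme genes of the exocrine pancreas, chosen after their values were seen, took 1.05% of reads in samd7-/- larva 1, against 0.0106 and 0.0187% in samd7-/- larvae 2 and 3 and between 0.00134 and 0.00395% in WT larvae. Without samd7-/- larva 1 the log2 fold change was −16.94 for opn1mw1 (limma adjusted p = 2.0e-07) and −6.57 for opn1mw2 (limma adjusted p = 0.000157), and the summed green opsin ratio was 0.000116.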

How the data were processed

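Per the labels' protocols, 10 ng of total RNA per larva went into a SMARTer Ultra Low library, a kit that does not mark strand, and read pairs were sequenced. Per the submitters' processing notes, DESeq2 1.34.0 in R 4.1.3, HTSeq 0.9.1, STAR 2.7.2b and Trim Galore 0.6.1 were used with genome build danRer10. For the annotation, none is named by these notes. Each deposited value is a size-factor-normalized signal: reads per gene over the size factor of that library. The authors' deposited table gives adjusted p-values and log2 fold changes too, which served as an alternative. Whole reads were recovered as multiples of the smallest value (100% of values within 0.001 in each library); for samd7-/- 2 the step, 1.01, is so near 1 that an automatic check did not accept it. The exact intervals (95%) of read ratios and read shares and the floors (3 reads) cover counting error only. The limma intervals (95%) rest on the spread between larvae.

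The main test was limma 3.58.1 (R 4.3.3), trended, 2-sided, on log2(value + 1), for genes that reached 10 in at least 3 libraries (2 where 1 library was left out), with Benjamini-Hochberg adjustment over all genes tested. This scale understates changes of low genes. Sums, shares and ratios were compared with exact permutation tests. Replicates are single larvae. Named genes were the members, other visual opsins used in ratios, called list genes with 5 fixed others, array neighbours, and the 5 genes most like opn1mw1 and opn1mw2; digestive enzymes were added after their values were seen. Members and lists were chosen with earlier results of these data known. Symbols not in the table were matched through RefSeq synonyms (GRCz12tu). Alternatives were DESeq2 1.42.0, edgeR 4.0.16, other filters, pseudocounts, scalings, robust moderation, the replicate block, the authors' deposited table and each library left out. No sequences of the copies were analysed here.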

Additional observations from a re-analysis of the deposited data

How the results depend on the processing

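The falls of opn1mw1 and opn1mw2 kept their direction and their side of the threshold under all 17 alternatives run. The log2 fold change lay between −18.28 and −14.77 for opn1mw1, the smallest with a pseudocount of 10, and between −6.57 and −5.96 for opn1mw2, with adjusted p no higher than 3.4e-05 and 0.00392. The summed green opsin ratio lay between 0.000116 and 0.000177 under its 8 alternatives; with 2 larvae in a genotype its exact permutation p cannot go below 0.2. The number of all genes called, 36, was 92 with DESeq2, 90 in the authors' deposited table and between 8 and 27 with a library left out. For the cone signalling list, 4 calls became 8 with DESeq2, 8 in the authors' deposited table and 1 to 3 with a library left out. For the regulators, 3 calls became 1 to 2 with a library left out, and at most 4 among all alternatives. The cause was not tested. With a library left out, the sign of 4 genes that were not called turned in some fits, over a range of −0.33 to 0.24 for fkbp5, −0.14 to 0.15 for six6b, −0.38 to 0.34 for slc6a13l and −0.14 to 0.0039 for wdr82.

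In the labels, same-numbered larvae share a number only, and whether the numbers mark a batch was not tested. Correlations of their deviations were 0.0286, 0.183 and −0.0024, against −0.159 to 0.145 for differently numbered larvae. With the replicate block, opn1mw1 had an adjusted p of 3.7e-06 and opn1mw2 of 1.3e-05, and 33 genes were called. The block took the calls of rgs9b (adjusted p = 0.0502) and tbx2a (adjusted p = 0.104), leaving 3 of the cone signalling list and 2 regulators. At 27 to 67 green opsin reads per mutant library, depth limits the makeup of the remainder.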
